A study of Mus musculus with 15 samples.

Results

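The 35 genes described here act in G2 and mitosis, the stages in which a cell checks its replicated DNA, builds a spindle and divides. They were named by symbol, and all 35 were found among the 23284 gene symbols of a table of RNA-seq read counts. The table covers 6 liver tumours from mice in which Hmgb1 was deleted, 6 liver tumours from floxed control mice and 3 normal livers. Hmgb1 encodes a chromatin protein that also serves as an alarm signal once released from dying cells. The Hmgb1-deleted mice carried floxed Hmgb1 alleles together with Albumin-Cre, a recombinase made under the albumin promoter and hence in liver epithelium, so that other cells of the tumour kept the gene. The floxed control mice carried the same floxed alleles, and no Cre is named for them. Both tumour groups had received the mutagen diethylnitrosamine at 25 mg/kg by intraperitoneal injection on day 15 after birth, then carbon tetrachloride, a liver toxin, at 0.5 µl/g in corn oil, given weekly for 15 weeks from week 8. The normal livers came from C57BL/6 control mice, for which no floxed allele and no treatment are named, so tumour growth, genotype and toxin exposure cannot be told apart in the comparisons with normal liver. Age at collection, litter and batch are not given in the labels. Nor is it stated that each tumour came from its own mouse, so the p-values measure only how far these samples spread, which may be partly technical.

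Entry into mitosis is driven by CDK1 bound to a B-type cyclin, and exit by the anaphase-promoting complex (APC/C), a ubiquitin ligase that marks the cyclins for destruction. Many of the genes that carry out the steps between are transcribed together late in the cell cycle, under the MuvB complex with B-MYB and FOXM1. In resting cells the related DREAM complex keeps them low, and adult hepatocytes are mostly resting. Certain promoter elements recur in this programme: CCAAT boxes, which bind the factor NF-Y, and the cell cycle genes homology region (CHR), TTTGAA, which binds MuvB.

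For 30 of the 35 genes a promoter window was at hand in the RefSeq promoter table (mouse build GRCm38.p6), running from 250 bases before to 50 bases after the annotated start. The count files use another build, so these coordinates belong to the promoter table only. The 150 bases before the start are shown for 6 genes: Cdk1 and Ccnb1, the mitotic kinase and its cyclin; Ube2c and Cdc20, an enzyme and an activator of the APC/C; Top2a, with the most matches; and Aurka, the gene whose level differed least between tumours and normal liver. Each reads 5′ to 3′ on the strand of the gene. Capitals mark the CCAAT box, the CHR and a variant of the CHR, in either orientation.
Cdk1, chr10:69352913-69353062, minus strand: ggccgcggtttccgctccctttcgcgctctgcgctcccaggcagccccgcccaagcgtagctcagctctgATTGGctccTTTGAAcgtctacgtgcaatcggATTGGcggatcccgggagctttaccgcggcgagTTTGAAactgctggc
Ccnb1, chr13:100786487-100786636, minus strand: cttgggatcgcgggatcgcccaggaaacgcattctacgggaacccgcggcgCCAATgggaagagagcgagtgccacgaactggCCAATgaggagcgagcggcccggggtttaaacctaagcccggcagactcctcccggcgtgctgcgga
Ube2c, chr2:164769779-164769928, plus strand: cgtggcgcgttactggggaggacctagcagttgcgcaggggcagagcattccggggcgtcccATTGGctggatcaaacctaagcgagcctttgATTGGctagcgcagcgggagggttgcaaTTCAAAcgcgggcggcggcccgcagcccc
Cdc20, chr4:118437344-118437493, minus strand: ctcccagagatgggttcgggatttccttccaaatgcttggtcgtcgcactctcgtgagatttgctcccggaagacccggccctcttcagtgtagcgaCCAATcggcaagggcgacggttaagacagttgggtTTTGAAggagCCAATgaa
Top2a, chr11:99024190-99024339, minus strand: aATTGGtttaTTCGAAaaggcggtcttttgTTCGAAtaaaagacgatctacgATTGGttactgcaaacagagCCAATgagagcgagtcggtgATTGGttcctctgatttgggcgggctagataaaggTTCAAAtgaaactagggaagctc
Aurka, chr2:172370571-172370720, minus strand: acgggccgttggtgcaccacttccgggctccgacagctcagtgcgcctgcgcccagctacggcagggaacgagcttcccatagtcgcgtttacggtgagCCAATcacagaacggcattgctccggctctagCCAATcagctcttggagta

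A CCAAT match on either strand was present in the window of 23 of the 30 genes (76.7%), against 10248 of all 27025 promoters in the table (37.9%) and 39.0% of those of protein-coding genes. A CHR match on either strand was also present in 23 of the 30 (76.7%), against 18.1% of all promoters and 16.5% of coding ones. Both were present in 20 of the 30 (66.7%), against 7.12% of all promoters and 6.68% of coding ones. Matches of different motifs could overlap and were counted separately. The variant TTCGAA occurred in 3 of the 30 (10%), in Bub1, Bub1b and Top2a, against 1.57% of all promoters. Pairs of CCAAT matches on 1 strand whose first bases lay 30 to 35 bases apart occurred in 6 of the 30 (20%), against 1.26% of all promoters. These were Cdk1, Ccnb1 and Aurka at 32 bases, Ccnb2 with 3 matches at 33 bases each, Cdca8 at 34 bases and Ube2c at 31 bases on both strands. In Aurka the CHR match began 33 bases after the start, outside the stretch printed. Birc5, Melk, Nuf2 and Nusap1 had neither letter string in this window, and for Ccna2, Foxm1, Aurkb, Tpx2 and Kif20a no promoter is shown. The matches describe the sequence and say nothing of binding in these livers.

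**Figure D1:**
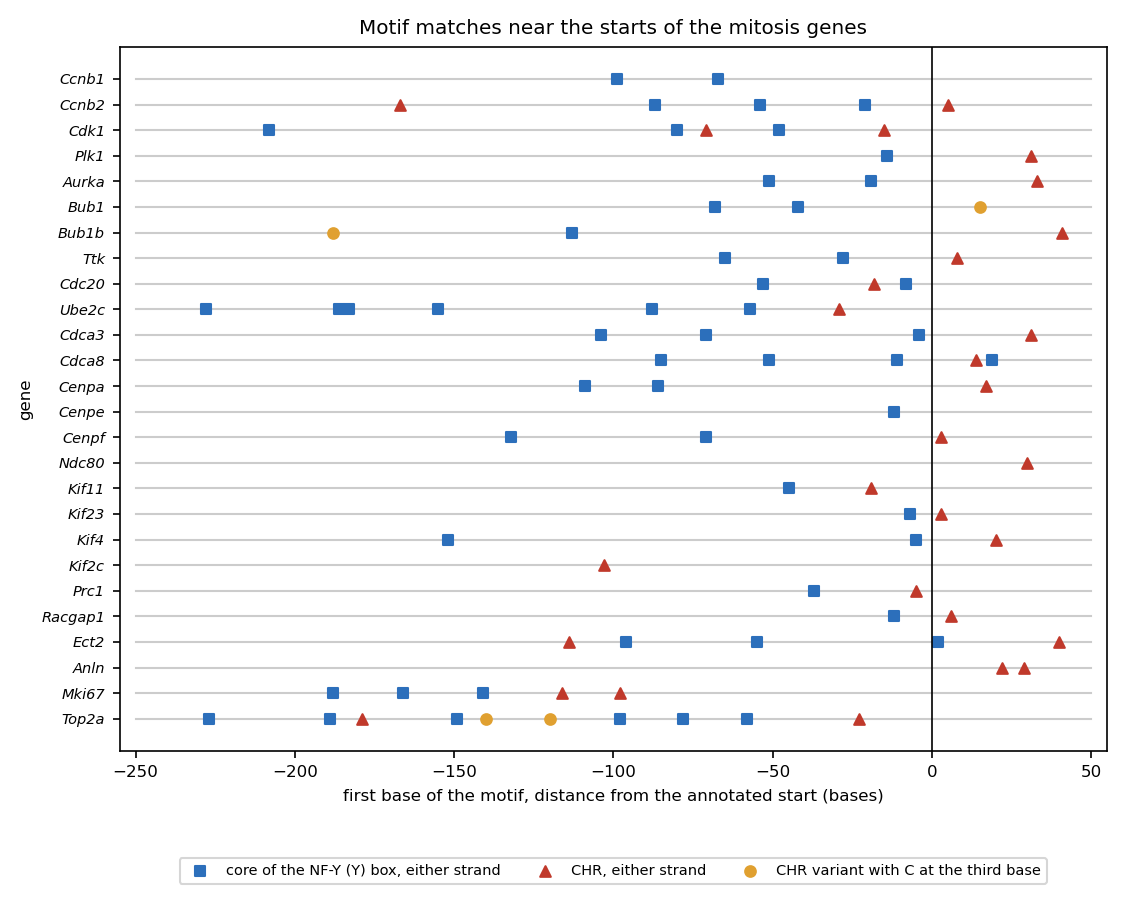
Position of each motif match relative to the annotated start for the 26 genes with a match. The x axis counts bases, negative before the first transcribed base and positive from it on, with no position 0. Squares mark the core of the NF-Y box, triangles the CHR and circles its variant. CHR matches gather from shortly before the start to about the end of the window, and Y-box matches mostly lie before the start.

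The libraries held 18973246 to 26293378 counts in Hmgb1-deleted tumours, 20191452 to 30929442 in floxed tumours and 23193714 to 26997782 in normal livers. Levels are given as CPM, read counts put on one library size with TMM factors over the 15 libraries, and 3 counts in 1 library correspond to 0.11 to 0.169 CPM. Hmgb1 itself averaged 14.8 ± 2.76 CPM in Hmgb1-deleted tumours (SD, n = 6), against 27.9 ± 3.36 in floxed tumours (SD, n = 6) and 23.9 ± 6.07 in normal livers (SD, n = 3). The highest Hmgb1-deleted tumour (17.8 CPM) lay below the lowest floxed tumour (23.3 CPM) and the lowest normal liver (19.1 CPM). The difference between the tumour groups in log2(CPM + 1) was -0.89 (exact two-sided permutation test p = 0.00216, adjusted over 3 comparisons 0.00649). Albumin, the defining hepatocyte product, was abundant in every library, and the summed hepatocyte markers (9 of 9 in the table) ranged from 77330 to 177679 CPM in Hmgb1-deleted tumours, from 111738 to 292706 in floxed tumours and from 117119 to 143497 in normal livers. Exons of 9 of the 35 genes, Cdc20 and Ube2c among them, overlap a gene on the opposite strand. Where strand was not used, reads there may be lost or counted with the wrong gene. Exons of Foxm1 and Top2a overlap another gene on the same strand, where strand would not separate them. No mitosis gene had a library at 0 counts, and all 35 passed edgeR's filter on low counts in each comparison.

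Tumours of both genotypes carried far more mitotic mRNA than normal liver. All 35 genes rose in floxed tumours relative to normal liver, and 34 of the 35 rose in Hmgb1-deleted tumours relative to normal liver (edgeR's quasi-likelihood F test, with a p under 0.05 after Benjamini-Hochberg adjustment over all genes tested). Over all genes tested, 24.9% were higher and 23.8% lower in floxed tumours, and 18.1% were higher and 16.6% lower in Hmgb1-deleted tumours. The median log2 fold change of the 35 was 2.99 in floxed tumours and 3.45 in Hmgb1-deleted tumours, where the medians of all genes tested were 0.06 and 0.05. The 2 comparisons share their normal livers. In bulk tissue, more dividing cells and more mRNA in each dividing cell cannot be told apart. As a ratio of mean CPM, floxed tumours over normal liver ranged from 2.03 for Aurka to 24.1 for Ube2c, with a median of 8.00, and Hmgb1-deleted tumours over normal liver from 1.91 for Aurka to 29.3 for Ube2c, with a median of 10.97. Every floxed tumour lay above every normal liver for 30 of the 35 genes (22.9% of all genes tested), the exceptions being Aurka, Cdca3, Kif11, Kif20a and Ect2. Every Hmgb1-deleted tumour did so for 33 of the 35 (18.4% of all genes tested), the exceptions being Aurka and Anln.

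**Figure D2:**
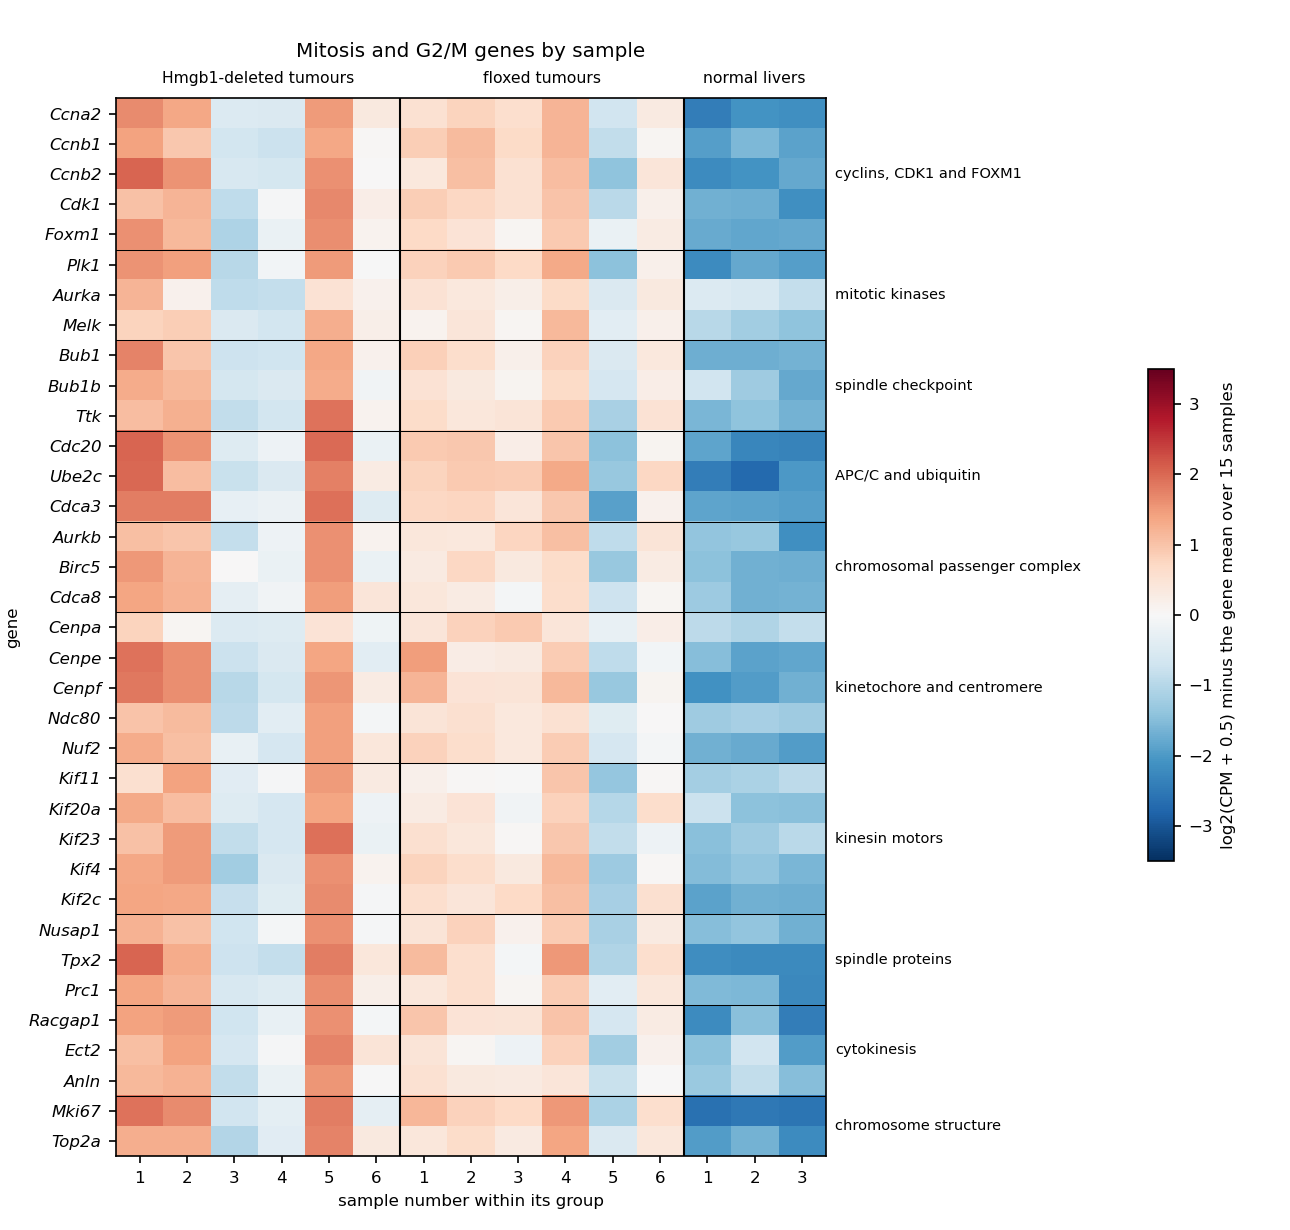
Level of each of the 35 genes (rows, grouped by role) in each of the 15 samples (columns), as log2(CPM + 0.5) minus the mean of that gene over the 15 samples. Normal livers are low for nearly all genes, and Hmgb1-deleted tumours 1, 2 and 5 are the highest of their group for all 35.

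Ube2c had the largest log2 fold change of the 35 against normal liver in each genotype, and other large ones were spread over several roles (Nuf2, Bub1, Ccnb1, Plk1 and Kif2c). Ube2c, the ubiquitin-conjugating enzyme that serves the APC/C, had a lowest, median and highest value of 1.70, 5.82 and 14.7 CPM in Hmgb1-deleted tumours and of 1.02, 6.30 and 9.04 CPM in floxed tumours, against 0.203, 0.0815 and 0.443 CPM in the 3 normal livers. All 12 tumours lay above all normal livers, and the tumour groups overlapped. Its log2 fold change against normal liver was 4.91 ± 0.97 (SE) in Hmgb1-deleted tumours (edgeR adjusted p = 0.00626) and 4.60 ± 0.75 in floxed tumours (adjusted p = 0.000707). Cdc20, the activator that lets the APC/C act at anaphase, had a lowest, median and highest value of 2.44, 7.19 and 15.8 CPM in Hmgb1-deleted tumours and of 0.980, 5.62 and 7.31 CPM in floxed tumours, against 0.609, 0.326 and 0.295 CPM in normal livers. Its log2 fold changes were 4.38 ± 0.89 in Hmgb1-deleted tumours and 3.60 ± 0.65 in floxed tumours. Cdca3, which promotes mitotic entry through degradation of a CDK1 inhibitor, was at 1.72 CPM in floxed tumour 5 and at 1.79, 1.75 and 1.67 CPM in the normal livers, while the other floxed tumours held 8.63 to 15.3 CPM and the Hmgb1-deleted tumours 5.54 to 31 CPM.

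Cyclins, CDK1 and FOXM1 rose in both genotypes, 5 of 5 against normal liver in each. Cdk1, the kinase of mitotic entry, had a lowest, median and highest value of 3.51, 11.4 and 23.3 CPM in Hmgb1-deleted tumours and of 3.33, 11.0 and 14.2 CPM in floxed tumours, against 1.83, 1.75 and 1.18 CPM in normal livers. Its log2 fold change against normal liver was 2.96 ± 0.61 in Hmgb1-deleted tumours (edgeR adjusted p = 0.00716) and 2.66 ± 0.44 in floxed tumours (adjusted p = 0.000788). The lowest tumour of each genotype was above the highest normal liver, and the tumour groups overlapped. Ccnb1, cyclin B1, had a lowest, median and highest value of 0.807, 2.76 and 5.31 CPM in Hmgb1-deleted tumours and of 0.705, 3.24 and 4.50 CPM in floxed tumours, against 0.0812, 0.244 and 0.0985 CPM in normal livers, where it rested on 2, 6 and 2 counts. It rose by 4.35 ± 0.89 on the log2 scale in Hmgb1-deleted tumours and by 4.32 ± 0.71 in floxed tumours. Foxm1, a transcription factor for this gene programme, had a lowest, median and highest value of 1.22, 5.46 and 10.8 CPM in Hmgb1-deleted tumours and of 2.59, 4.27 and 6.36 CPM in floxed tumours, against 0.569, 0.529 and 0.542 CPM in normal livers. It rose by 3.48 ± 0.76 in Hmgb1-deleted tumours and by 2.99 ± 0.36 in floxed tumours. Of the other members, Ccna2, cyclin A2, rose by 3.90 ± 0.70 in Hmgb1-deleted tumours and 3.5 ± 0.45 in floxed tumours, and Ccnb2, cyclin B2, by 3.77 ± 0.82 in Hmgb1-deleted tumours and 3.17 ± 0.58 in floxed tumours.

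**Figure D3:**
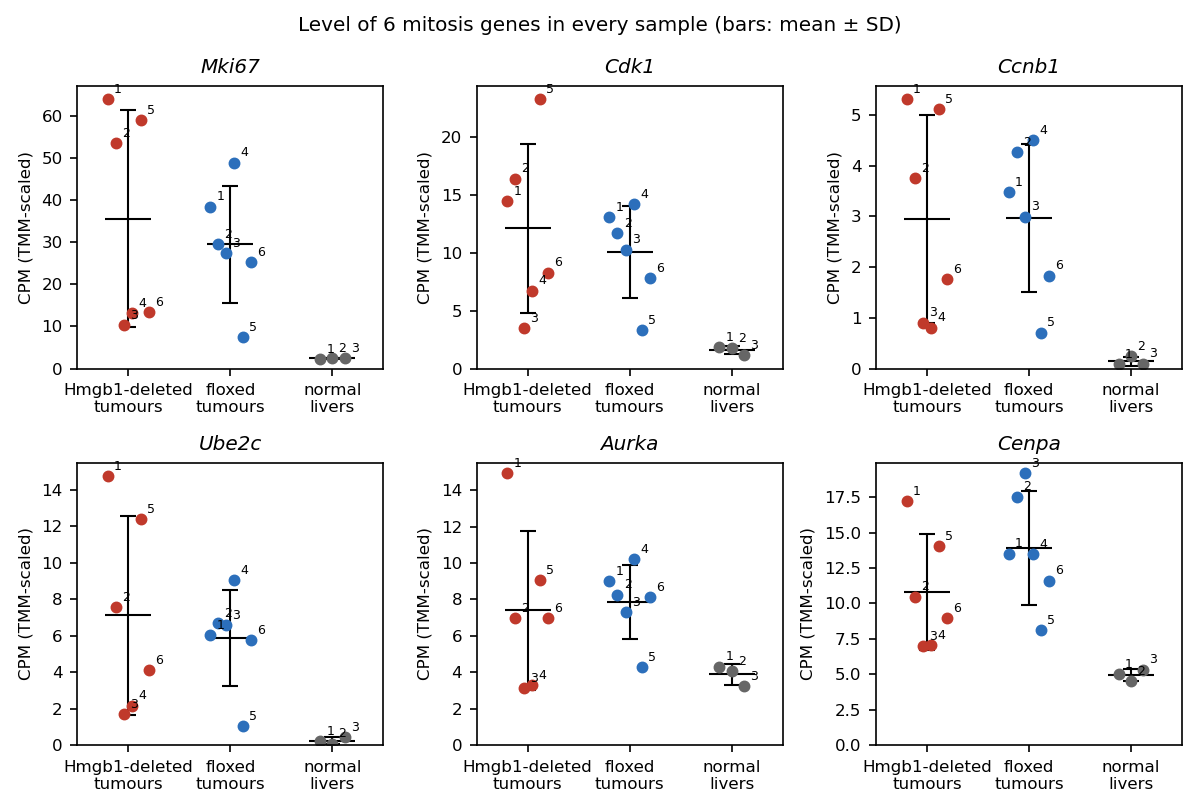
CPM of 6 genes in every sample (y axes, linear from 0), with horizontal bars for the mean ± SD of each group and the sample number beside each point. Mki67, Cdk1, Ccnb1 and Ube2c are above all normal livers in all 12 tumours, Aurka overlaps with normal liver in both tumour groups, and for Mki67 Hmgb1-deleted tumours 1, 2 and 5 lie well above 3, 4 and 6.

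The mitotic kinases were uneven. Plk1, which acts on centrosomes and at mitotic entry, rose by 4.34 ± 0.86 on the log2 scale in Hmgb1-deleted tumours (edgeR adjusted p = 0.00629) and by 4.04 ± 0.76 in floxed tumours (adjusted p = 0.00166) relative to normal liver. Melk, a kinase first described in embryos and abundant in dividing cells, rose by 3.45 ± 0.81 in Hmgb1-deleted tumours and by 3.20 ± 0.63 in floxed tumours, and the normal livers held 6, 3 and 1 counts of it. Aurka, the kinase of the spindle poles, had the smallest change of all 35 genes. Its lowest, median and highest values were 3.13, 6.98 and 14.9 CPM in Hmgb1-deleted tumours and 4.27, 8.19 and 10.2 CPM in floxed tumours, against 4.31, 4.07 and 3.25 CPM in normal livers. Hmgb1-deleted tumours 3 and 4 and floxed tumour 5 lay within or below the normal range. The log2 fold change was 0.96 ± 0.48 in Hmgb1-deleted tumours, which did not pass (adjusted p = 0.145), and 1.02 ± 0.27 in floxed tumours, which did (adjusted p = 0.0101), though not without normal liver 3 (0.89, adjusted p = 0.0517) or with all 15 samples in 1 fit (1.01, adjusted p = 0.0662).

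Spindle checkpoint genes, which hold anaphase until all chromosomes are attached, rose 3 of 3 in each genotype. Bub1, a checkpoint kinase, had a lowest, median and highest value of 0.744, 2.65 and 6.29 CPM in Hmgb1-deleted tumours and of 0.941, 2.39 and 3.13 CPM in floxed tumours, against 0.122, 0.122 and 0.148 CPM in normal livers, or 3 counts in each of these. Its log2 fold change was 4.49 ± 0.92 in Hmgb1-deleted tumours and 4.08 ± 0.51 in floxed tumours. Ttk, the kinase known as MPS1 in human cells, rose by 4.28 ± 0.98 in Hmgb1-deleted tumours and 3.76 ± 0.69 in floxed tumours. Bub1b, the checkpoint protein BUBR1, rose by 2.24 ± 0.67 in Hmgb1-deleted tumours (edgeR adjusted p = 0.0292) and by 1.77 ± 0.43 in floxed tumours (adjusted p = 0.00637).

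The chromosomal passenger complex corrects faulty attachments and steers cytokinesis, and the 3 of its genes among the 35 rose. In Hmgb1-deleted tumours the log2 fold changes against normal liver were 2.88 for Birc5 (survivin), 3.01 for Cdca8 (borealin) and 3.13 for Aurkb, its kinase. In floxed tumours they were 2.25 for Birc5, 2.22 for Cdca8 and 2.86 for Aurkb, with adjusted p from 0.00117 to 0.00267 (edgeR). Incenp, the scaffold subunit of the complex and outside the 35, rose by 1.93 ± 0.47 in Hmgb1-deleted tumours (adjusted p = 0.0136) and by 1.71 ± 0.24 in floxed tumours (adjusted p = 0.000259). At the kinetochore all 5 genes rose in each genotype. Nuf2 and Ndc80, both subunits of the complex that grips microtubules, had log2 fold changes of 4.72 ± 0.79 and 3.08 ± 0.79 in Hmgb1-deleted tumours and of 4.29 ± 0.60 and 2.64 ± 0.42 in floxed tumours. The Nuf2 values in normal livers rested on 4, 3 and 1 counts. Cenpf, a large outer kinetochore protein, rose by 4.21 ± 0.92 in Hmgb1-deleted tumours and 3.65 ± 0.69 in floxed tumours, and Cenpe, a kinesin that carries chromosomes to the spindle equator, by 3.68 ± 0.89 in Hmgb1-deleted tumours and 3.15 ± 0.61 in floxed tumours. Cenpa, the histone H3 variant that marks centromeres, was the exception in size. Its lowest, median and highest values were 6.96, 9.71 and 17.2 CPM in Hmgb1-deleted tumours and 8.11, 13.5 and 19.2 CPM in floxed tumours, against 5.0, 4.52 and 5.32 CPM in normal livers, with all 12 tumours above the normal livers. Its log2 fold change was 1.15 ± 0.32 in Hmgb1-deleted tumours (edgeR adjusted p = 0.0224) and 1.49 ± 0.26 in floxed tumours (adjusted p = 0.00111).

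Among the kinesin motors, 5 of 5 rose in each genotype. Kif2c, which takes microtubules apart at their ends, rose by 4.33 ± 0.89 on the log2 scale in Hmgb1-deleted tumours and 3.91 ± 0.66 in floxed tumours, and Kif4, a motor bound to chromosomes, by 3.56 ± 0.90 in Hmgb1-deleted tumours and 3.06 ± 0.67 in floxed tumours. Kif23 and Kif20a, motors of the central spindle, rose by 2.68 ± 0.83 and 2.21 ± 0.64 in Hmgb1-deleted tumours and by 1.98 ± 0.49 and 1.76 ± 0.46 in floxed tumours. Kif11, which pushes the spindle poles apart, had the smallest kinesin change. It held 2.66, 5.17 and 11.2 CPM as its lowest, median and highest value in Hmgb1-deleted tumours and 1.14, 3.79 and 7.61 CPM in floxed tumours, against 1.34, 1.43 and 1.72 CPM in normal livers, and floxed tumour 5 lay below all normal livers. Its log2 fold change was 2.12 ± 0.52 in Hmgb1-deleted tumours (edgeR adjusted p = 0.0135) and 1.43 ± 0.48 in floxed tumours (adjusted p = 0.0318). The call in Hmgb1-deleted tumours was lost without normal liver 1 or 2 (adjusted p = 0.0618 and 0.0581), and the call in floxed tumours without any 1 of the 3 normal livers (adjusted p = 0.0705 to 0.107).

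Spindle proteins rose 3 of 3, cytokinesis genes 3 of 3 and chromosome structure genes 2 of 2, in each genotype. Tpx2, which activates Aurora A on the spindle, rose by 4.16 ± 0.86 on the log2 scale in Hmgb1-deleted tumours and 3.70 ± 0.61 in floxed tumours, although its partner Aurka changed least. Prc1, which bundles midzone microtubules, rose by 3.20 ± 0.70 in Hmgb1-deleted tumours and 2.70 ± 0.41 in floxed tumours, and Nusap1, a spindle microtubule stabiliser, by 2.76 ± 0.61 in Hmgb1-deleted tumours and 2.35 ± 0.49 in floxed tumours. For cytokinesis, Racgap1, a subunit of centralspindlin, rose by 3.70 ± 0.80 in Hmgb1-deleted tumours and 3.30 ± 0.54 in floxed tumours. Ect2, the exchange factor that activates RhoA at the cleavage furrow, rose by 2.52 ± 0.65 in Hmgb1-deleted tumours (edgeR adjusted p = 0.0171) and by 1.66 ± 0.53 in floxed tumours (adjusted p = 0.0236), and both calls were lost without normal liver 1 or 3 (adjusted p = 0.0642 to 0.0934). Anln, anillin, which links actin and septins in the furrow, rose by 2.38 ± 0.67 in Hmgb1-deleted tumours and 1.77 ± 0.39 in floxed tumours. Mki67, the Ki-67 proliferation marker that coats mitotic chromosomes, had a lowest, median and highest value of 10.4, 33.5 and 64.1 CPM in Hmgb1-deleted tumours and of 7.49, 28.6 and 49.0 CPM in floxed tumours, against 2.32, 2.53 and 2.46 CPM in normal livers. The normal livers were nearly equal and every tumour lay above them. Its log2 fold change was 3.90 ± 0.78 in Hmgb1-deleted tumours (edgeR adjusted p = 0.00649) and 3.60 ± 0.52 in floxed tumours (adjusted p = 0.000341). Top2a, the topoisomerase that untangles sister chromatids, rose by 3.13 ± 0.68 in Hmgb1-deleted tumours and 2.81 ± 0.43 in floxed tumours.

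The count of 34 in Hmgb1-deleted tumours against normal liver rested in part on having 3 normal livers: it was 24 without normal liver 1, 24 without normal liver 2 and 25 without normal liver 3, with all 35 log2 fold changes above 0 in each case. It was 33 without Hmgb1-deleted tumour 1 or 2. The calls lost in all 3 cases were those of Bub1b, Ndc80, Cenpa, Kif20a, Kif23, Kif4 and Anln. The share of all genes called fell as well, as given under the processing alternatives.

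**Figure D4:**
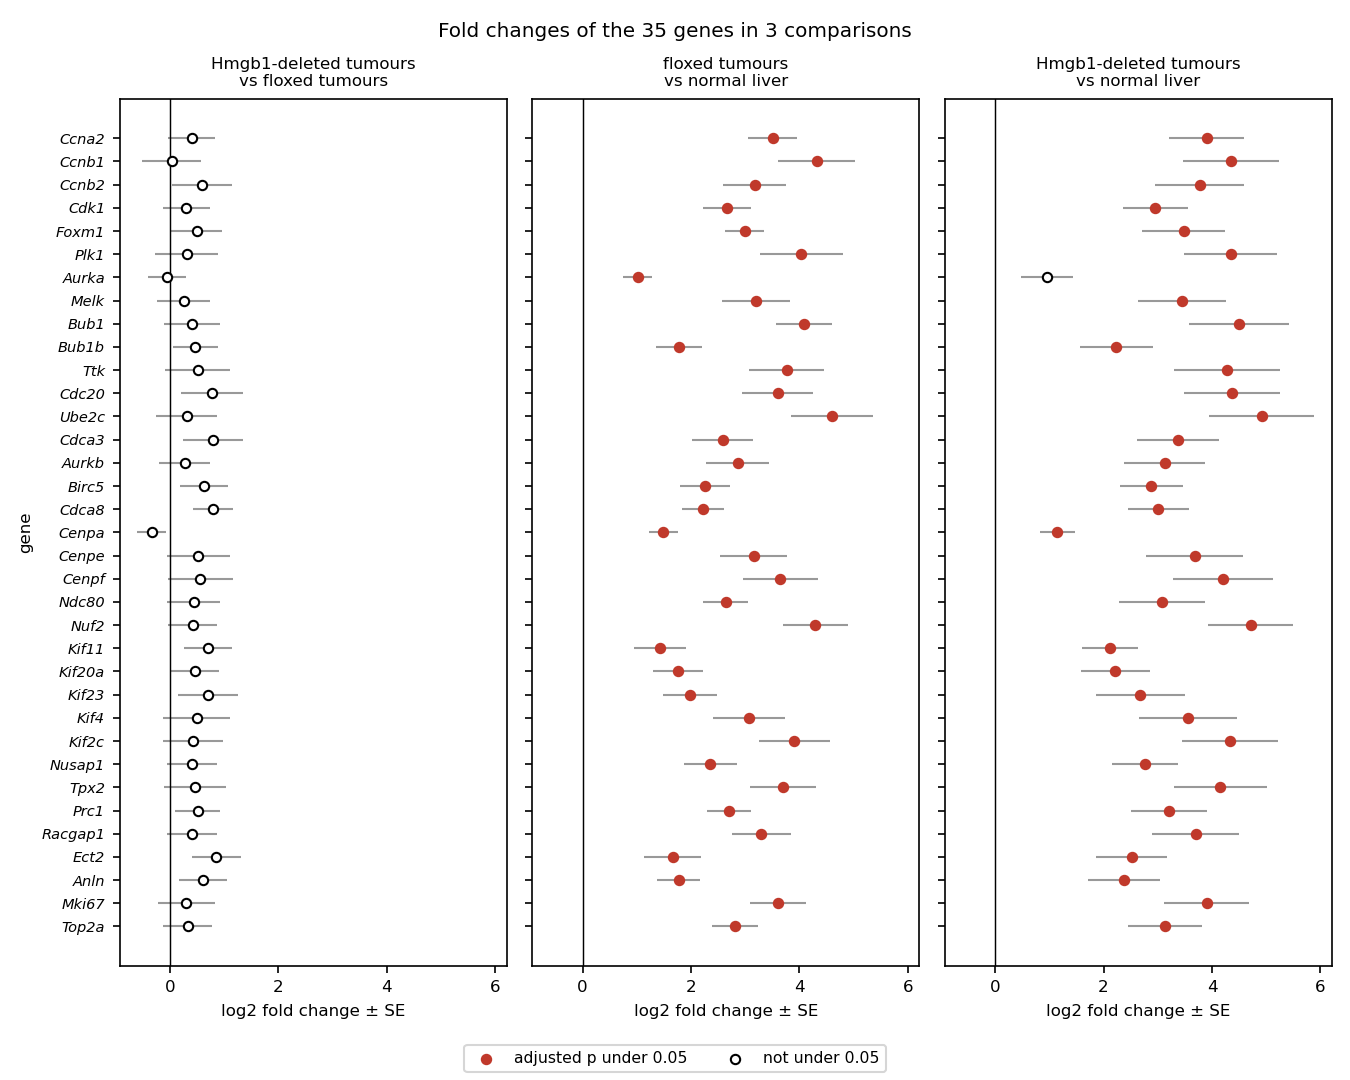
Log2 fold change ± SE of each gene (rows) in the 3 comparisons, with filled points for an edgeR adjusted p under 0.05 over all genes tested. All 35 points are filled for floxed tumours against normal liver, 34 for Hmgb1-deleted tumours against normal liver and none for Hmgb1-deleted against floxed tumours.

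Deletion of Hmgb1 was then examined by setting Hmgb1-deleted tumours against floxed tumours. None of the 35 genes passed in either direction, while 4.45% of all genes tested were higher and 3.33% lower in Hmgb1-deleted tumours (7.78% in either direction). None reached an unadjusted p under 0.05 with edgeR, and DESeq2 and voom each called 0 after adjustment and had 1 gene at an unadjusted p under 0.05. For 33 of the 35 genes the log2 fold change was above 0, with a median of 0.45 beside 0.02 over all genes tested. That lean was not stable, since 6 of 35 were above 0 with voom and sample weights. Without Hmgb1-deleted tumours 2 and 5 the count was 15 of 35. That removal takes out tumours high for these very genes, so a fall was built in and supports nothing. Without Hmgb1-deleted tumours 3, 4 and 6, a removal that keeps the tumours highest for these very genes and so supports nothing, 4 of the 35 were higher (2.47% of all genes tested). The ratios of mean CPM ran from 0.775 for Cenpa to 1.77 for Ect2, with a median of 1.34. Mki67 averaged 35.6 ± 25.8 CPM in Hmgb1-deleted tumours and 29.6 ± 13.9 CPM in floxed tumours (SD, n = 6 each), a log2 fold change of 0.30 with a 95% interval of -0.87 to 1.47. Cdk1 averaged 12.1 ± 7.31 CPM in Hmgb1-deleted tumours and 10.1 ± 3.98 CPM in floxed tumours, with a log2 fold change of 0.30 and an interval of -0.66 to 1.26. Each interval includes both no change and a rise of 1 on the log2 scale, so a rise of that size in Hmgb1-deleted tumours could not be told from no change with this spread.

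The genes nearest to the threshold were Cdca8, at 5.89 ± 3.11 CPM in Hmgb1-deleted tumours and 3.48 ± 1.15 CPM in floxed tumours (log2 fold change 0.79, interval -0.05 to 1.63, edgeR adjusted p = 0.217), and Ect2, at 8.10 ± 4.84 CPM in Hmgb1-deleted tumours and 4.58 ± 2.05 CPM in floxed tumours (0.86, interval -0.13 to 1.85, adjusted p = 0.255). Foxm1 had a log2 fold change of 0.49 (interval -0.54 to 1.52), and Ccnb1 one of 0.03 (interval -1.17 to 1.22), which changed sign with DESeq2, with voom and with any 1 of 5 libraries left out. The 2 genes below 0 were Cenpa, at 10.8 ± 4.10 CPM in Hmgb1-deleted tumours and 13.9 ± 4.01 CPM in floxed tumours (-0.34, interval -0.93 to 0.24), and Aurka, at 7.39 ± 4.36 CPM in Hmgb1-deleted tumours and 7.86 ± 2.01 CPM in floxed tumours (-0.06, interval -0.85 to 0.73, and above 0 at 0.21 on library totals without a factor). For none of the 35 genes did the tumour groups separate without overlap, against 4.93% of all genes tested. For 10 of the 35 the range of the Hmgb1-deleted tumours enclosed that of the floxed tumours, a count not made over all genes.

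What did recur from gene to gene was the order of the individual tumours. Hmgb1-deleted tumours 1, 2 and 5 were the highest 3 of their group for all 35 genes, with tumour 5 highest for 22 and tumour 1 for 13. Hmgb1-deleted tumours 3 and 4 were the lowest 2 for 32 of the 35, the exceptions being Cdc20, Cdca3 and Birc5. Against the other genotype, Hmgb1-deleted tumours 1, 2 and 5 lay above all floxed tumours for 30, 27 and 32 of the 35 genes, while 3, 4 and 6 lay below the floxed median for 35, 35 and 31. Among floxed tumours, number 5 was the lowest for all 35 genes, and number 4 the highest for 28. The exceptions for the highest place were Bub1, Cenpe, Cenpf and Anln in floxed tumour 1, Birc5 and Ndc80 in floxed tumour 2, and Cenpa in floxed tumour 3. The 35 genes share their libraries and scaling factors, so these counts are not independent observations. The same counts were not made over all genes, so whether this order is particular to the 35 was not tested.

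The spread of the 35 genes between tumours was larger in the Hmgb1-deleted group. The SD of log2(CPM + 0.5) was higher in Hmgb1-deleted than in floxed tumours for all 35 genes, with medians of 0.99 in Hmgb1-deleted tumours, 0.69 in floxed tumours and 0.21 in normal livers, a description for which no test was run. The share of all genes with a higher SD in Hmgb1-deleted tumours was not counted. The ratio of the highest to the lowest Hmgb1-deleted tumour ran from 2.47 for Cenpa to 13.3 for Kif4, with a median of 6.65, and that of floxed tumours from 2.37 for Cenpa to 12.1 for Plk1, with a median of 5.02. Normal livers differed by a median ratio of 1.67. With each gene set relative to its floxed mean, the median level of the 35 genes in Hmgb1-deleted tumours 1 to 6 was 2.05, 1.86, 0.378, 0.501, 2.31 and 0.765. In floxed tumours 1 to 6 it was 1.20, 1.12, 0.931, 1.5, 0.325 and 0.901, and in the normal livers 0.148, 0.168 and 0.109. The lowest tumour of either genotype thus remained above the highest normal liver on this scale.

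Some markers of other cell types moved with that order among Hmgb1-deleted tumours and others did not, and their part in it was not tested. The summed stellate cell and myofibroblast markers (5 of 5 in the table) were at 151, 159, 53.2, 63.4, 130.4 and 51.4 CPM in Hmgb1-deleted tumours 1 to 6, so that the same 3 tumours were high. Col1a1, a collagen of activated stellate cells, made up the largest single part of this sum in tumours 1, 2 and 5, at 68.1, 102, 13.4, 20.8, 73.4 and 19.9 CPM in tumours 1 to 6, and Acta2 and Pdgfrb were also highest in tumours 1, 2 and 5. Lrat, a marker of quiescent stellate cells, was instead lowest in tumours 2 and 5, at 3.42 and 3.62 CPM, and Des was at 4.02 to 8.5 CPM with its maximum in tumour 4. The summed stellate markers were at 63.6 to 98.8 CPM in the floxed tumours other than number 5, which held 590.1 CPM and the lowest mitosis genes, and at 51.4 to 60.2 CPM in normal livers. Cholangiocyte markers (5 of 5) were at 967, 6104, 276, 205, 1147 and 399 CPM in Hmgb1-deleted tumours 1 to 6, at 60.3 to 1765 CPM in floxed tumours and at 67.2 to 78.8 CPM in normal livers. In Hmgb1-deleted tumours nearly all of that sum was Spp1, osteopontin, a gene not limited to cholangiocytes, at 943, 6024, 265, 195, 1126 and 389 CPM. Sox9 (4.79 to 52.8 CPM) and Epcam (1.27 to 23.6 CPM) were also highest in tumours 1, 2 and 5. The duct keratins Krt19 (0.597 to 2.53 CPM) and Krt7 (0.634 to 2.16 CPM) were instead both lowest in tumour 5. Krt7 was highest in tumours 2 and 1, at 2.16 and 1.39 CPM, and Krt19 in tumours 4 and 1, at 2.53 and 2.34 CPM. Hepatocyte markers summed to 132082, 77330, 177679, 132362, 97751 and 165586 CPM in Hmgb1-deleted tumours 1 to 6, lowest in 2 and 5, and floxed tumour 5 held the lowest sum of its group. Most of the sum was albumin, at 55990 to 141215 CPM in Hmgb1-deleted tumours. Alb, Apoa1, Ttr, Hnf4a and Asgr1 were lowest in 2 and 5, and Tat and Cps1 in 2 and 1. Apob was instead highest in tumour 5, at 7470 CPM, and Fgb was lowest in 5 and 4. Lymphocyte markers (11 of 11) ranged from 32.5 to 68.5 CPM in Hmgb1-deleted tumours, from 24.8 to 83.3 CPM in floxed tumours and from 17.97 to 19.9 CPM in normal livers, with Hmgb1-deleted tumour 5 and floxed tumour 4, each often the highest of its group for the mitosis genes, also highest here. Endothelial markers (5 of 5) were at 97.4 to 177 CPM in Hmgb1-deleted tumours, lowest in number 2 and highest in number 6, 142 to 388 CPM in floxed tumours, with the maximum in floxed tumour 5, and 98.9 to 172 CPM in normal livers. Among Hmgb1-deleted tumours, Pecam1 was highest in 1, 2 and 5, and Cdh5 in 5 and 1. Stab2 and Kdr were instead lowest in 1, 2 and 5, and Lyve1 in 2 and 5. Macrophage markers (6 of 6) ranged from 204 to 329 CPM in Hmgb1-deleted tumours, with tumour 5 highest and tumour 6 next, 126 to 264 CPM in floxed tumours and 156 to 221 CPM in normal livers. Csf1r, Cd68 and C1qa were highest in Hmgb1-deleted tumours 1, 2 and 5, and Adgre1 in 1 and 5. Clec4f was instead lowest in 2 and 5, and Marco in 5 and 6. Neutrophil markers (4 of 5) ranged from 1.98 to 9.51 CPM in Hmgb1-deleted tumours, lowest in tumour 5, 1.75 to 25.5 CPM in floxed tumours and 1.58 to 3.05 CPM in normal livers. Erythroid markers (4 of 4, Hba-a1 at 0 throughout) were lower in tumours, at 17.9 to 45.2 CPM in Hmgb1-deleted tumours and 8.80 to 48.8 CPM in floxed tumours, against 146 to 162 CPM in normal livers.

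**Figure D5:**
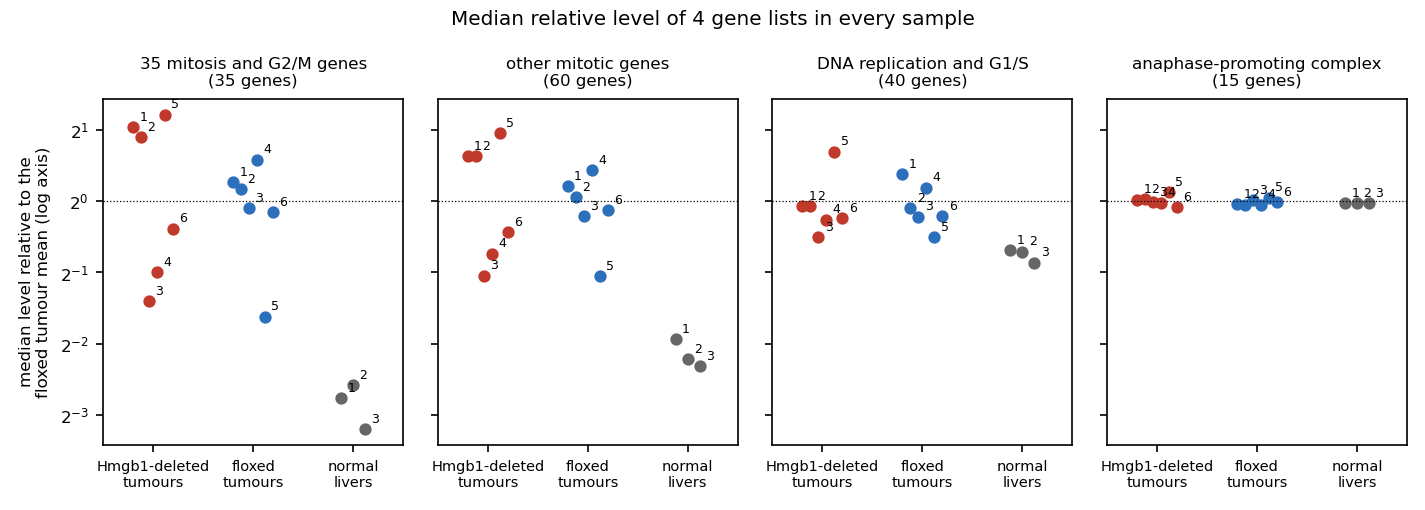
Median level of 4 gene lists in every sample, each gene relative to its mean over floxed tumours (y axis, log scale), with the sample number beside each point. The order of the tumours in the 35 genes recurs in the other mitotic genes, is flatter in the replication genes and is flatter still in the subunits and regulators of the APC/C, which stay near 1.

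A list of 60 further mitotic genes outside the 35 followed the same order, and was chosen with earlier results of these data known. Relative to the floxed mean the median level of its genes was 1.55, 1.54, 0.485, 0.60, 1.94 and 0.742 in Hmgb1-deleted tumours 1 to 6, and 0.262, 0.215 and 0.202 in normal livers. Against normal liver, 42 of the 60 rose and 2 fell in Hmgb1-deleted tumours (median log2 fold change 2.0), and 45 rose and 1 fell in floxed tumours (median 2.09). Over all genes tested, 18.1% rose and 16.6% fell in Hmgb1-deleted tumours, and 24.9% rose and 23.8% fell in floxed tumours. Ckap2, a spindle-associated protein, rose by 4.24 ± 0.47 in floxed tumours, Gtse1, a microtubule-bound regulator of G2, by 2.84, Depdc1a by 5.14 in Hmgb1-deleted tumours and Sgol2, a shugoshin that protects centromeric cohesin, by 3.97 (edgeR adjusted p from 7.13e-05 to 0.00423). Depdc1a was at 0.269 to 1.12 CPM in Hmgb1-deleted tumours and at 0.0406, 0 and 0 CPM in normal livers. Each normal liver thus held fewer than 3 counts of it, and the size of its rise is imprecise. Between the tumour genotypes 1 of 59 was higher and 1 lower in Hmgb1-deleted tumours. Over all genes tested, 4.45% were higher and 3.33% lower, and 4.93% did not overlap between the genotypes. Spc24, a subunit of the same microtubule-binding complex as Ndc80 and Nuf2, was at 8.2 to 18.7 CPM in Hmgb1-deleted tumours and 1.96 to 6.69 CPM in floxed tumours, without overlap, against 7.31, 8.31 and 13.8 CPM in normal livers (log2 fold change between genotypes 1.43 ± 0.30, adjusted p = 0.0142). Psrc1, a microtubule-associated protein of the spindle, was at 2.79 to 5.66 CPM in Hmgb1-deleted tumours and 25.0 to 73.0 CPM in floxed tumours, again without overlap, against 0.0406, 0.0407 and 0.148 CPM in normal livers (-3.14 ± 0.27, adjusted p = 0.000242).

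The DNA replication and G1/S genes moved less. Of 39 tested, 13 rose and 1 fell in Hmgb1-deleted tumours and 16 rose and 3 fell in floxed tumours relative to normal liver, with median log2 fold changes of 0.73 in Hmgb1-deleted and 0.63 in floxed tumours. The shares of all genes tested were 18.1% higher and 16.6% lower in Hmgb1-deleted tumours and 24.9% higher and 23.8% lower in floxed tumours. Relative to the floxed mean, the median level of the list was 0.954, 0.955, 0.704, 0.835, 1.62 and 0.845 in Hmgb1-deleted tumours 1 to 6 and 0.623, 0.612 and 0.550 in normal livers. Ccne1, cyclin E1, had its lowest, median and highest values at 4.38, 7.44 and 9.48 CPM in Hmgb1-deleted tumours and at 8.74, 15.9 and 23.3 CPM in floxed tumours, against 0.528, 0.407 and 0.788 CPM in normal livers. It was lower in Hmgb1-deleted than in floxed tumours, with slight overlap (-1.23 ± 0.27, edgeR adjusted p = 0.0183). E2f8, a repressor of the E2F family, ran the other way, at 5.21 to 14.8 CPM in Hmgb1-deleted tumours and 0.994 to 3.33 CPM in floxed tumours, against 19.9, 46.7 and 17.0 CPM in normal livers. It was higher in Hmgb1-deleted than in floxed tumours (1.86 ± 0.33, adjusted p = 0.00714) and fell in floxed tumours relative to normal liver (-3.66 ± 0.39). Mcm10, a replication initiation factor, was also highest in normal livers, at 63.0, 113 and 111 CPM, with 6.80 to 17.1 CPM in floxed tumours (-3.15 ± 0.28, adjusted p = 1.75e-05). In Hmgb1-deleted tumours 1 to 6 it was at 5.42, 8.51, 57.4, 67.8, 13.5 and 44.5 CPM, high in those where the mitosis genes were low.

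Of 12 G1 cyclins, CDKs and CDK inhibitors tested, 4 rose and 0 fell in Hmgb1-deleted tumours and 7 rose and 1 fell in floxed tumours relative to normal liver, beside shares of all genes of 18.1% higher and 16.6% lower in Hmgb1-deleted tumours and 24.9% higher and 23.8% lower in floxed tumours. Between the genotypes 0 were higher and 2 lower in Hmgb1-deleted tumours, against 4.45% higher and 3.33% lower over all genes tested. The 2 lower genes encode INK4 inhibitors of CDK4 and CDK6, but the other INK4 genes of the list were not lower. Cdkn2c averaged 8.84 CPM in Hmgb1-deleted tumours and 8.63 CPM in floxed tumours. Cdkn2d averaged 0.255 CPM in Hmgb1-deleted tumours and 0.219 CPM in floxed tumours, near the floor. Cdkn2b was at 5.19 to 23.6 CPM in Hmgb1-deleted tumours and 29.8 to 53.4 CPM in floxed tumours, against 0.162, 0.326 and 0.246 CPM in normal livers (-1.88 ± 0.34 between genotypes, edgeR adjusted p = 0.00833). Cdkn2a, which also encodes ARF, was at 1.82 to 9.67 CPM in Hmgb1-deleted tumours and 9.82 to 46.1 CPM in floxed tumours, against 0.0812, 0.122 and 0 CPM in normal livers (-2.39 ± 0.50, adjusted p = 0.0142). Neither gene overlapped between the genotypes, which held for 4.93% of all genes tested. Cdkn1a, the p53-responsive inhibitor p21, rose by 4.59 ± 0.49 in floxed tumours relative to normal liver (adjusted p = 5.57e-05).

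A list of 15 genes held subunits of the DREAM and MuvB complexes and related factors, Rb1 and E2f3 among the latter. Of these 15, all tested, 2 rose and 3 fell in Hmgb1-deleted tumours and 4 rose and 4 fell in floxed tumours relative to normal liver. Over all genes, 18.1% rose and 16.6% fell in Hmgb1-deleted tumours and 24.9% rose and 23.8% fell in floxed tumours, so these counts are near the background. Rbl2, the pocket protein p130 of the DREAM complex, fell by 1.71 ± 0.13 on the log2 scale in Hmgb1-deleted tumours (edgeR adjusted p = 0.000208) and by 1.86 ± 0.19 in floxed tumours (adjusted p = 4.71e-05). It was at 14.2 to 22.7 CPM in Hmgb1-deleted tumours and 10.8 to 22.4 CPM in floxed tumours, against 64.3, 59.0 and 58.4 CPM in normal livers. Mybl1, a MYB family factor, rose by 2.63 ± 0.49 in floxed tumours. Between the genotypes Rbbp4, a histone-binding MuvB subunit, was higher (0.68 ± 0.17, adjusted p = 0.0270) and E2f3 lower (-0.58 ± 0.15, adjusted p = 0.0381) in Hmgb1-deleted tumours, and both calls were lost in several fits with 1 library left out. The 15 subunits and regulators of the APC/C, whose activator Cdc20 and enzyme Ube2c rose, were nearly flat. None passed in Hmgb1-deleted tumours against normal liver with edgeR, with 5 at an unadjusted p under 0.05, and Anapc4 rose (0.86) and Anapc1 fell (-0.44) in floxed tumours. Their median level relative to the floxed mean stayed between 0.943 and 1.09 in the 12 tumours and between 0.977 and 0.982 in the normal livers.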

How the data were processed

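Per the labels' protocols, libraries of poly-A RNA were prepared with a TruSeq kit from 12 liver tumours and 3 normal livers. The authors deposited whole-number read counts by gene symbol, without normalization. The submitters' processing notes name the build mm9 and the tools HTSeq 0.6.1, Bowtie2 2.2.4, TopHat2 2.1.0 and bcl2fastq 1.8.4. Not given in the sources used here are the annotation, whether strand was used, and how reads with several matches were counted, so genes that overlap another gene or have a near copy (Kif4 has a listed pseudogene) are uncertain.

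Samples were grouped by their labels. In R 4.3.3 each pair of groups was fitted with edgeR 4.0.16's quasi-likelihood F test on the deposited counts (filterByExpr, TMM factors, robust dispersions, group as the only term), and a gene was called at p under 0.05 after Benjamini-Hochberg adjustment over all genes tested, whatever its fold. Standard errors come from the F statistic and intervals are at 95%. Fold changes are tumour over normal liver, or Hmgb1-deleted over floxed. CPM values and their SD use TMM factors over all 15 libraries. Libraries held 18973246 to 30929442 counts, which sets the precision, and floors cover counting error only. Libraries of a group differed from each other by a chi-square per degree of freedom of at least 26.3, so each was counted once. The fit was tested on simulated data.

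The genes, lists and left-out tumours were chosen with earlier results of these data known. Named are Hmgb1, the 35 genes and, from each of 5 pathway lists, genes among the 3 with the smallest p in a comparison. Mcm10 in Hmgb1-deleted tumours, Incenp, Cdkn2c, Cdkn2d and single cell type markers were added after their values were seen. Of the list symbols, Ska3 and Adgre1 were matched by an older name and Ly6g was not matched. Lists got counts and medians only. For 29 of 30 promoters, 20 bases after the start were found in a transcript of the gene, and for 0 on the opposite strand. Alternatives were RLE and upper-quartile factors, library totals without a factor, no filter, at least 1 CPM, DESeq2 1.42.0, voom with sample weights (limma 3.58.1), all 15 samples in 1 fit, the replicate number as a block, each library left out, and sets of Hmgb1-deleted tumours left out.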

Additional observations from a re-analysis of the deposited data

Results flagged for a closer look

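Floxed tumour 5 stood apart from the other 5 floxed tumours on the low side for 10 of the 35 genes. In each case its gap to the next tumour, divided by the range of the group in log2(CPM + 0.5), was above Dixon's critical value of 0.625 for 6 samples. The ratio was 0.784 for Birc5, 0.771 for Ube2c, 0.742 for Ttk, 0.721 for Cdca3, 0.715 for Kif2c, 0.714 for Ccnb2, 0.654 for Aurkb, 0.643 for Mki67, 0.640 for Nusap1 and 0.638 for Cdc20. Of 70 groups examined in this way (35 genes in 2 tumour groups), chance would flag about 1 in 20, and the genes share their libraries. No Hmgb1-deleted tumour was flagged. Floxed tumour 5 also held the highest summed stellate cell and endothelial markers of its group. Without it, the 35 genes rose in the other floxed tumours as before, 35 of 35 against normal liver.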

How the results depend on the processing

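All 35 genes kept a log2 fold change above 0 against normal liver in both genotypes under each alternative run, except 1 with voom in Hmgb1-deleted tumours. In floxed tumours 32 to 35 passed with 1 library left out and 34 with all 15 samples in 1 fit. In Hmgb1-deleted tumours 24 to 34 passed with 1 library left out, 31 without tumours 2 and 5, and 35 without 3 and 4. These sets of tumours were high or low for these very genes, so the counts without them support nothing. The median of the 35 in Hmgb1-deleted tumours against normal liver was 2.62 with voom, against 3.45. Upper-quartile factors shifted the median of all genes by a similar amount to that of the 35, to 0.23 in floxed and 0.20 in Hmgb1-deleted tumours against normal liver, and library totals without a factor to 0.15 and 0.33. Between the genotypes library totals moved it to 0.20 and the median of the 35 to 0.78, beside 0.42 to 0.45 with the factors.

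Between Hmgb1-deleted and floxed tumours, 0 of the 35 passed in either direction under all alternatives other than the removal of tumours 3, 4 and 6, where 4 were higher. Log2 fold changes above 0 fell to 6 of 35 with voom and to 15 of 35 without tumours 2 and 5. The sets of tumours left out were high or low for these very genes, so counts and signs without them support nothing. None of these fold changes was called, and several changed sign: with voom Mki67 (-0.44), Cdk1 (-0.24), Foxm1 (-0.16) and Ccnb1 (-0.69), without tumours 2 and 5 Mki67 (-0.21), Cdk1 (-0.28) and Ccnb1 (-0.40), with DESeq2 Ccnb1 (-0.00384), and Aurka with library totals (0.21), without tumours 3 and 4 (0.27) and without 3, 4 and 6 (0.39). With 1 library left out, Ccnb1 ranged from -0.22 to 0.21 and Aurka from -0.38 to 0.10. The causes were not tested.

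Over all genes, 1954 were called between the genotypes with DESeq2, 1629 with all 15 samples in 1 fit, 422 without tumours 3 and 4 and 589 to 1054 with 1 library left out, against 1045. The split of higher to lower calls was 598 to 447 with TMM, 535 to 524 with RLE, 561 to 560 with upper-quartile factors and 982 to 257 with library totals. In Hmgb1-deleted tumours against normal liver 4787 were called, and 2113 to 4912 with 1 library left out (2113 without normal liver 1, 2227 without 2 and 3109 without 3). The calls of E2f3 and Rbbp4 between the genotypes were lost in 10 and 4 of the 12 fits with 1 library left out, and Ccne1 and Spc24 were lost without tumours 3 and 4 (adjusted p = 0.0502 and 0.0739).

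The replicate numbers were not taken as pairs: same-numbered Hmgb1-deleted and floxed tumours had correlations of their deviations from -0.27 to 0.23, and 2 of 6 Hmgb1-deleted tumours correlated best with the floxed tumour of their own number. With the replicate block 860 genes and 0 of the 35 were called between the genotypes (Ccnb1 at -0.15), and in Hmgb1-deleted tumours against normal liver, with 3 numbers shared, 3055 genes and 31 of the 35. Depth limits the values in normal liver, where Nuf2 rested on 8 counts in all and Bub1 on 9.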
